A study of Mus musculus with 14 samples.

Results

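H3K27ac regions in later introns are stretches of chromatin carrying acetylated lysine 27 of histone H3 that lie inside a gene, in any intron after its first. They were taken from the authors' deposited region table as the rows annotated to intron 2 or later with a width under 3000 bases. This gave 7852 of the 40772 regions in the table (19.3%), spread over 2830 host genes. The choice used position and width and no measured signal. A further 173 later-intron rows reached 3000 bases and were left out. The members nearest to that limit were 2987, 2978 and 2976 bases wide, in Itgav, Arhgap42 and Morn1, with log2 differences between the groups of 0.15, -0.53 and -1.21. The nearest rows outside it were 3006, 3013 and 3015 bases wide, in Trerf1, Ostf1 and Lyrm4, with log2 differences of 0.71, -0.08 and -0.44.

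The cells were Y1, a mouse adrenocortical tumour cell line, and every library came from this line. All cultures had been deprived of serum for 48 h before a stimulus of 5 h. The stimulus was 10% fetal bovine serum supplemented by FGF-2 (fibroblast growth factor 2, a ligand of receptor tyrosine kinases) at 10 ng/ml, or 10% fetal bovine serum with nothing added. H3K27ac was measured by chromatin immunoprecipitation and sequencing in 2 libraries per group, and polyadenylated RNA in 3 libraries per group. The control cells thus also received serum, so the comparison asks what FGF-2 changed on top of serum.

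H3K27ac is deposited by the acetyltransferases p300 and CBP and marks active promoters and active enhancers. Enhancers are often found inside introns, where they may act on the gene that holds them or on another gene nearby, and the mark alone does not tell which. In cells stimulated by a growth factor, the RAS-RAF-MEK-ERK kinases act on transcription factors of the ETS and AP-1 families, which bind at many such sites. In the adrenal cortex, the nuclear receptor NR5A1 (steroidogenic factor 1) binds enhancers of steroid-producing genes.

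The H3K27ac libraries held 12447135 and 11840994 fragments with FGF-2 and 12856806 and 14156846 with serum alone. Of these, 34.1% and 34.6% with FGF-2 and 35.3% and 28.0% with serum alone lay in the regions of the table. The deposited signal of a region is a whole number times a factor per library between 0.836 and 1, and that number was taken as reads. Its lowest value is 1, called 1 read below. No source used here says whether input was subtracted or whether that value is a set limit. The shares of fragments above, the variance against read sampling and the fold limits below rest on this reading. The lowest value was recorded at 39 and 71 members with FGF-2 and at 240 and 192 with serum alone. The variance between libraries of a group at the members was 2.204 times that of read sampling with FGF-2 and 2.412 times with serum alone. The input library paired with serum library 2 held 110273836 fragments, against 12241177 to 15672630 for the other inputs. In the RNA, 8 adrenocortical marker genes summed to 4477 to 7045 CPM (counts scaled to library size) with FGF-2 and 1110 to 1733 CPM with serum alone. Star and Soat1 made up most of that sum and rose (log2 fold changes 3.80 ± 0.50 and 2.11 ± 0.26). Cyp11a1, the side-chain cleavage enzyme that starts steroid synthesis, was lower, at 73.7 ± 29.0 CPM with FGF-2 and 124.1 ± 18.5 CPM with serum alone (log2 fold change -0.76 ± 0.26, edgeR adjusted p = 0.0454); that call was lost without FGF-2 RNA library 1 (-0.58) or 2 (-0.63), without serum RNA library 1 (-0.74) or 3 (-0.68). It was also lost (-0.75) when genes of low count were kept in. Scarb1, at 192.5 to 315.5 CPM with FGF-2 and 209.5 to 276.4 CPM with serum alone, and Fdx1, at 90.5 to 222.3 CPM with FGF-2 and 116.6 to 197.5 CPM with serum alone, did not pass. The marker list also held Nr5a1, present at 63.9 to 82.4 CPM with FGF-2 and 68.2 to 85.1 CPM with serum alone, and Nr0b1, listed at 0 in every library, and Mc2r, at 0.213 CPM or less. Fibroblast and capsule markers summed to 2042 to 2916 CPM with FGF-2 and 2811 to 3509 CPM with serum alone, with Col1a1 in the lead and Col1a2 and Dcn listed at 0. Markers of endothelium and blood summed to 9.27 to 11.8 CPM with FGF-2 and 8.604 to 14.6 CPM with serum alone. Markers of the adrenal medulla summed to at most 0.195 CPM, with Th and Dbh listed at 0. The part of these differences in the H3K27ac results was not tested, and a change in the share of cells cannot be told apart from a change per cell.

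Some later introns hold the start of another transcript. A RefSeq transcript start (GRCm38.p6) lay inside 40 of the 7852 members, and 8 of those starts belonged to a shorter transcript of the host gene itself. By the test described below, 17.7% of all members were called higher with FGF-2 and 4.50% lower. Of the 40 members with a start, 8 were called higher and 2 lower. The start windows of 4 of them are shown, from 250 bases before the start to 50 after it, because each surrounds a start inside a member that changed and each holds a match to the motif of a factor family named above. They were chosen after their values were seen. Capitals mark the match, to the ETS motif CCGGAAG, the AP-1 motif TGANTCA or the NR5A1 motif CAAGGTCA, each searched on both strands; the TEAD motif GGAATG, also present in the windows of Gm33548 and Gm38646, is not marked.
Ppfibp2 (chr7:107665228-107665527, + strand, ETS): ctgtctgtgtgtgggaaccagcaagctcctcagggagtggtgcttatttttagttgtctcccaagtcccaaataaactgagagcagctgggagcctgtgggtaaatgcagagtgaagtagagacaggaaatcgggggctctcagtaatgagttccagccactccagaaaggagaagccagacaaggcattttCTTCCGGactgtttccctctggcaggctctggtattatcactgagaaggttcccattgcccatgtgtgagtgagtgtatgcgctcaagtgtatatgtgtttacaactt
Gm42005, inside Coro1c (chr5:113873106-113873405, + strand, AP-1): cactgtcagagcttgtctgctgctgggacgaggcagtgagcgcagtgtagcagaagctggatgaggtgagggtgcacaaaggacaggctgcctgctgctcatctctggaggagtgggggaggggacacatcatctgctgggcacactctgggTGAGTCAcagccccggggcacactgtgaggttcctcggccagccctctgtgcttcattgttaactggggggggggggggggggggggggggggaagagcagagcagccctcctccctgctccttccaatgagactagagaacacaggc
Gm33548, inside Stxbp6 (chr12:44930271-44930570, + strand, AP-1): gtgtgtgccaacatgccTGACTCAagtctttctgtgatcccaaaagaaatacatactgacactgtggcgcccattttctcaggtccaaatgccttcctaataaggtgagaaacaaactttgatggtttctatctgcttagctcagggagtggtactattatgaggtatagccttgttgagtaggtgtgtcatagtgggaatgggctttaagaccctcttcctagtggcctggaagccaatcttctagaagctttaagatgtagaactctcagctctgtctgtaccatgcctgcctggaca
Gm38646, inside Ptprd (chr4:77310582-77310881, + strand, NR5A1): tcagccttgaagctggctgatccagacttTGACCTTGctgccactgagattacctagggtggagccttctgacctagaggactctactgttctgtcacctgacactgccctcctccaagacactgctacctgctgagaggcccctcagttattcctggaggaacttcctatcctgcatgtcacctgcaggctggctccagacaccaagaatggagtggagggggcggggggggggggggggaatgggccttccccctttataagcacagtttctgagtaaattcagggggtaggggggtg

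Only the start was required to lie in a member, so a window and its match may reach outside it. The Ppfibp2 start, an internal start of the gene for a liprin scaffold protein, lay in a member with a log2 difference of 3.01. Its signals were 60.9 and 37 in the FGF-2 libraries and 7.37 and 3.34 in the serum libraries. The member at Gm42005 had 259.6 and 288 with FGF-2 and 196.1 and 135.4 with serum alone (log2 difference 0.74). The other window with an AP-1 match surrounded a start in a member that fell, at Gm33548. That member had 1.90 and 3 with FGF-2 and 31.3 and 17.6 with serum alone, a log2 difference of -2.85. At Gm38646 the values were 15.2 and 19 with FGF-2 and 35.0 and 39.3 with serum alone (log2 difference -1.08). Over 32851 RefSeq start windows of this length, 8.86% held the ETS motif, 7.81% the AP-1 motif and 1.56% the NR5A1 motif, so a match is a description of the letters and not a binding site.

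With FGF-2, 1388 later-intron regions (17.7%) rose in H3K27ac and 353 (4.50%) fell. The background over all 40772 regions was 12.6% called higher and 3.73% called lower. The test was limma on log2(signal + 1), fitted to the whole table, and a region was called at a Benjamini-Hochberg adjusted p under 0.05; a log2 difference is the mean log2(signal + 1) with FGF-2 minus that with serum alone, which understates changes from low signals. Of the calls, 1262 increases and 287 decreases reached at least 1 on the log2 scale. The share of all regions that passed this stricter rule was not looked up. The 2 FGF-2 libraries lay above both serum libraries in 1379 of the 1388 members called higher, and below both in 346 of the 353 called lower. At 88 members called higher, both serum libraries stood at the lowest value, and at 5 members called lower both FGF-2 libraries did. Among all members, called or not, the FGF-2 libraries lay above the serum libraries in 3214 (40.9%, against 33.6% of all regions) and below them in 1503 (19.1%, against 17.96%).

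The 2 other tests gave fewer increases. On the recovered reads, edgeR's quasi-likelihood test called 1077 members higher and 473 lower (background 10.6% and 6.69%). The authors' deposited table, at a false discovery rate under 0.05, called 848 higher and 146 lower (background 8.33% and 1.64%). All 3 called 838 of the same members higher and 145 of the same members lower. Shares over all regions were not looked up for this joint count or for the fits below that leave out a library. Increases made up 79.7% of the calls with limma, 69.5% with edgeR's scaling (TMM), 65.8% after centring each library on the median of all regions and 85.3% in the authors' deposited table. With limma the same share was 77.2% over all regions, 82.4% in first introns and 75.4% between genes. The median log2 difference of all 40772 regions was 0.11 as deposited and -0.018 in edgeR. With 2 libraries per group each library bore on the counts: 289 members were called higher and 142 lower without FGF-2 library 1, and 644 and 143 without FGF-2 library 2. Leaving out serum library 1 gave 1421 and 142, and leaving out serum library 2 gave 1283 and 375.

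**Figure D1:**
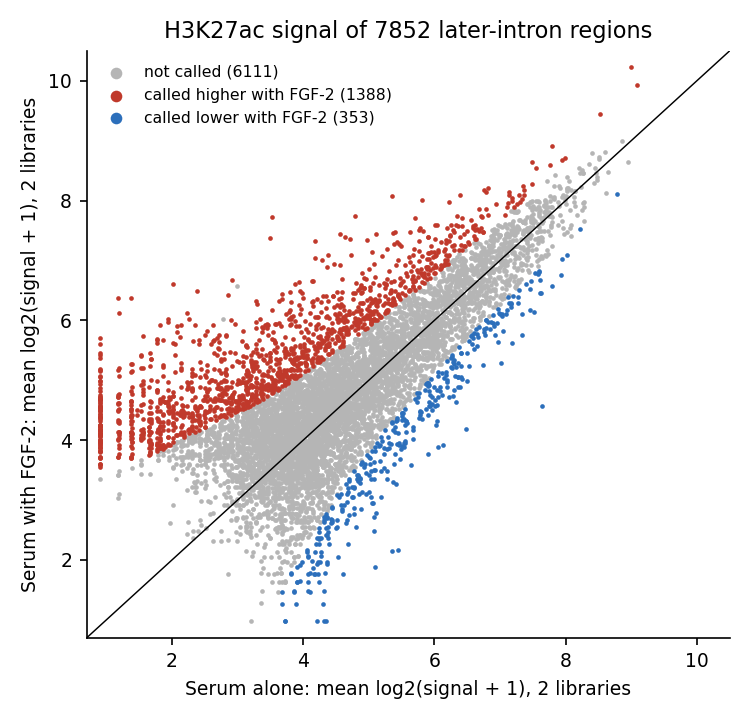
Mean log2(signal + 1) of each of the 7852 later-intron regions in serum with FGF-2 (vertical axis) and serum alone (horizontal axis), 2 libraries each; the line marks equal signal. The 1388 members called higher lie above the line and the 353 called lower below it, and the column of points at the left edge holds members whose serum libraries are both at 1 read.

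The level of the class as a whole was compared over libraries, where 2 against 2 cannot pass a threshold of 0.05. The median member signal was 26.6 and 23 in the FGF-2 libraries and 20.3 and 18.4 in the serum libraries, so both FGF-2 libraries lay above both serum libraries (two-sided exact permutation test, p = 0.333, the smallest that 2 against 2 libraries can give). The median log2 difference over the members was 0.24, beside 0.11 over all regions, and 0.054 beside -0.069 after centring the libraries. The interquartile range of the members ran from -0.28 to 0.89 and that of all regions from -0.23 to 0.56. Members held 8.67% and 7.79% of the signal of all regions with FGF-2 and 7.21% and 7.86% with serum alone, and these shares overlapped (two-sided exact permutation test, p = 0.667).

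The authors' peak lists, called per library against its own input, showed the same members in present-or-absent form. A peak overlapped 84.2% and 79.7% of the members with FGF-2 and 74.8% and 72.1% with serum alone. Peaks in all 4 libraries were found at 3533 members (45.0%). At 1190 members (15.2%, against 9.72% of all regions) both FGF-2 libraries and neither serum library had a peak, and at 593 (7.55%, against 5.14%) the opposite held. Every member had a peak in some library, and 0 members had a peak in a single library only. A member with no peak with serum alone therefore had peaks in both FGF-2 libraries by the make-up of the table, and the reverse also held. The shares near 100% that follow are in part a property of the table and do not test the calls. Members called higher had a peak in 100% and 99.4% of cases in the FGF-2 libraries and 35.6% and 40.1% in the serum libraries. Their median signals were 41.4 and 33 with FGF-2 and 9.21 and 10.0 with serum alone. Members called lower had a peak in 45.0% and 42.2% of cases with FGF-2 and in 100% and 99.7% with serum alone. Their median signals were 17.1 and 15 with FGF-2 and 46.0 and 38.4 with serum alone.

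Of 4 classes of regions, those at promoters were called least often. Within 1 kb of a transcript start, 2.67% of 12484 regions were called higher and 1.39% lower, with a median log2 difference of 0.050. In first introns, 15.9% of 4787 regions were called higher and 3.38% lower (median 0.20). Of 9899 intergenic regions, 17.6% were called higher and 5.77% lower (median 0.14). These shares were not tested against each other. The classes differ in signal, with a median of 21.9 in later introns, 23.8 in first introns, 24.9 between genes and 122.4 at start sites. Among regions with a mean signal from 20 to 50, 19.2% of the later-intron members and 15.8% of all regions were called higher; at 100 or more the shares were 16.3% and 7.12%.

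**Figure D2:**
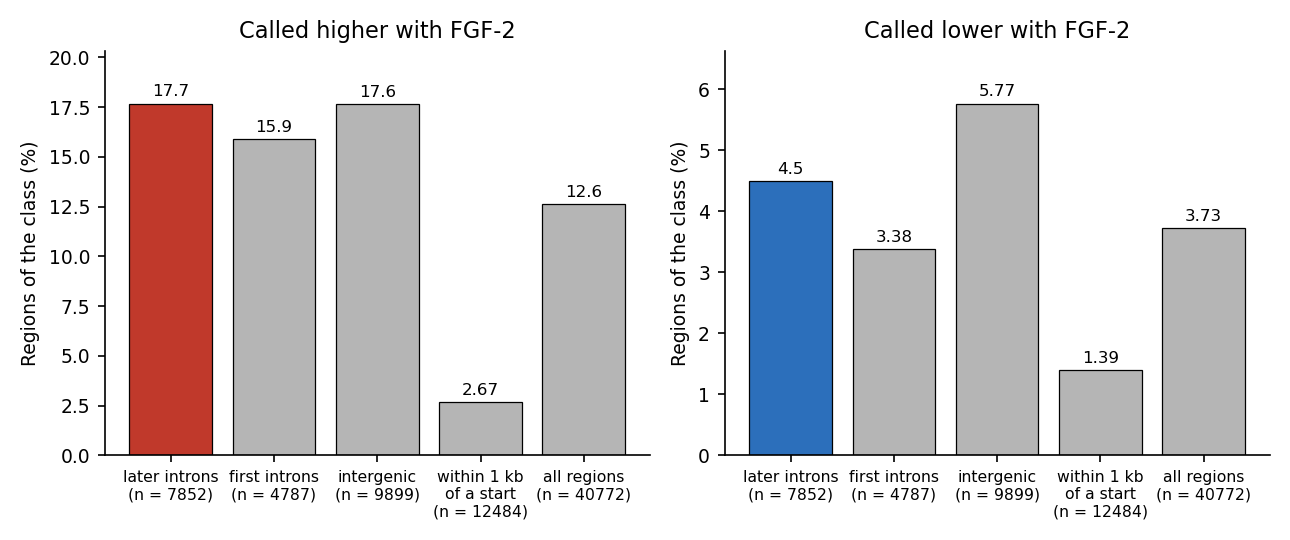
Percent of the regions of each class called higher (left) and lower (right) with FGF-2 by limma at an adjusted p under 0.05; the number of regions stands under each bar. Later introns (17.7% higher, 4.50% lower) stand near first introns and intergenic regions and above regions within 1 kb of a start (2.67% and 1.39%).

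Within the class, the share called higher varied little with position. It was 16.1% of 2316 members in intron 2, 18.5% of 1334 in intron 3, 17.6% of 2755 in introns 4 to 9 and 19.6% of 1447 in intron 10 or later. The last intron held 1061 members (13.5%), of which 191 were called higher. By distance to the nearest start, the share was 15.6% under 10 kb, 17.0% from 10 to 50 kb, 18.9% from 50 to 200 kb and 17.3% beyond 200 kb. The median member lay 55504 bases from the nearest start and was 572 bases wide. Among the numbered chromosomes the share called higher ran from 12.9% of 311 members on chromosome 16 to 24.0% of 288 on chromosome 17. Members with a mean signal of 50 to 100 had the largest share called lower of the 5 signal classes, at 7.28%, against 3.28% for those from 10 to 20. Over all regions of the table the same signal class also had the largest share called lower, at 5.42%, against 3.36% from 10 to 20.

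Members close to each other moved together. Of 5015 pairs of neighbouring members in the same host gene, 2357 were less than 2 kb apart. When the member of lower coordinate in such a close pair was called higher, the next was called higher in 67.2% of cases, and when it was called lower, the next was called lower in 41.8%. At 10 to 50 kb those shares were 28.2% and 5.26%, and at 50 kb or more 29.0% and 4.76%. Over all members, 17.7% were called higher and 4.50% lower. The median gap of the pairs under 2 kb was 231 bases, and whether such pairs are parts of the same acetylated stretch was not tested. Spearman's rho between the log2 differences of neighbours was 0.70 under 2 kb, 0.43 from 2 to 10 kb and 0.25 both from 10 to 50 kb and beyond; these are descriptions over pairs that share libraries. Neighbours with opposite calls numbered 12, against 519 with the same call. The 7852 members are therefore not independent measurements.

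The largest increases took members from a few reads with serum alone to clear peaks. The rule for these took members with an adjusted p under 0.05, a mean signal of at least 20 and no overlap between the groups. Arhgef3 encodes an exchange factor that activates the small GTPase RhoA, and its intron 5 held the largest increase (chr14:27347629-27348388). The signals were 88.4 and 76 with FGF-2 and 0.92 and 1.67 with serum alone, a log2 difference of 5.20 ± 0.54 (SE; adjusted p = 1.06e-18). The neighbouring member (chr14:27346639-27347280) rose as well, at 46.6 and 22 with FGF-2 and 1 read in each library with serum alone. Both serum libraries were near the lowest value at these 2 members, and the FGF-2 libraries stood clear of them. Arhgef3 RNA was 68.1 ± 16.1 CPM with FGF-2 and 14.7 ± 2.38 CPM with serum alone (SD, n = 3 each), a log2 fold change of 2.19 ± 0.19 (edgeR adjusted p = 3.61e-05).

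Crhr2, a receptor for urocortins of the corticotropin-releasing hormone family, had 73.2 and 31 in a member of intron 8 with FGF-2 (chr6:55097435-55098179) and 0.92 and 0.84, or 1 read each, with serum alone. Against 3 reads per serum library, that was at least 19.8-fold higher (11.8-fold without FGF-2 library 1). Its RNA was at 278.2 ± 69.3 CPM with FGF-2 and 2.74 ± 1.39 CPM with serum alone (SD, n = 3 each; log2 fold change 6.75 ± 0.37). Nrcam, a neuronal cell adhesion molecule, had 44.7 and 41 in intron 2 with FGF-2 and 1 read in each serum library, at least 16.3-fold higher. Nrcam RNA was 6172 ± 556 CPM with FGF-2 and 1178 ± 591 CPM with serum alone (log2 fold change 2.39 ± 0.33). Ksr2, a scaffold of the RAF-MEK-ERK kinases, had 54.2 and 32 in intron 9 with FGF-2 and 1 read in each serum library, at least 16.4-fold higher. Its RNA was 35.3 ± 14.5 CPM with FGF-2 and 1.64 ± 2.47 CPM with serum alone; the RNA call was lost without serum RNA library 2 (log2 fold change 4.28, edgeR adjusted p = 0.0529, and 0.00983 with all libraries).

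Among the other large increases, Rorb, a nuclear receptor, had 98.0 and 69 in its last intron with FGF-2 and 0.92 and 2.51 with serum alone (log2 difference 5.00). B930018H19Rik had 93.2 and 50 with FGF-2 and 1.84 and 0.84 with serum alone (4.92). Grm7, a metabotropic glutamate receptor, had 76.1 and 34 in intron 5 with FGF-2 and 1 read in each serum library, at least 20.9-fold higher (12.9-fold without FGF-2 library 1). The RNA of Rorb and B930018H19Rik averaged at most 0.981 CPM in either group and was not tested, and Grm7 was listed at 0 in all 6 RNA libraries. Ift140, a subunit of the ciliary transport machinery, had 117.0 and 80 in its last intron with FGF-2 and 3.68 and 2.51 with serum alone (4.59), and its RNA did not pass (log2 fold change 0.35, edgeR adjusted p = 0.106; 0.49 and 0.0376 without FGF-2 RNA library 2). Chd2, a chromatin remodeller, had 40.9 and 40 in intron 4 with FGF-2 and 1 read in each serum library, at least 15.4-fold higher, and its RNA rose by a log2 fold change of 0.60 ± 0.15. With library totals as the only RNA scaling that value was 0.27 and did not pass. Gm10863, a predicted gene, held the strongest of these 10 members, with 206.4 and 217 with FGF-2 and 10.1 and 10.9 with serum alone (4.21). Each of these 10 increases was called in every alternative in which it was tested.

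The largest decreases were smaller. Itpr2 encodes an inositol trisphosphate receptor, a calcium channel of the endoplasmic reticulum. A member in its intron 37 (chr6:146273825-146274316) had 19.0 and 27 with FGF-2 and 214.6 and 183.0 with serum alone, a log2 difference of -3.07 ± 0.30 (adjusted p = 3.24e-21). A second member in the same intron (chr6:146273207-146273598) had 60.9 and 38 with FGF-2 and 156.5 and 132.9 with serum alone (-1.56). Itpr2 RNA was 149.9 ± 28.0 CPM with FGF-2 and 215.5 ± 50.9 CPM with serum alone (SD, n = 3 each) and did not pass (log2 fold change -0.52, edgeR adjusted p = 0.0528). It did pass without FGF-2 RNA library 1 (-0.68) and without serum RNA library 1 (-0.70), and the adjusted p of these was 0.0239 and 0.0116.

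Pbrm1, a subunit of the PBAF chromatin remodelling complex, had 5.71 and 2 in its last intron with FGF-2 and 38.7 and 46.8 with serum alone (log2 difference -3.28), while its RNA was at 282.1 ± 6.78 CPM with FGF-2 and 276.6 ± 6.598 CPM with serum alone and did not pass. Ido2, an enzyme of tryptophan breakdown, had 0.95 and 6 with FGF-2 and 52.5 and 20.9 with serum alone (-3.21). The transcript uc007cfx.1 had 0.95 and 9 with FGF-2 and 40.5 and 39.3 with serum alone (-3.21). Parn, a poly(A) ribonuclease, had 5.71 and 6 with FGF-2 and 43.3 and 25.9 with serum alone (-2.33). In each of these members a peak was called in neither FGF-2 library. That both FGF-2 libraries lay below both serum libraries was required by the rule for their choice. Ppp1r12b, a myosin phosphatase subunit, had 12.4 and 16 in intron 6 with FGF-2 and 76.4 and 61.8 with serum alone (-2.21), and its RNA fell by 1.05 on the log2 scale. Ntn4, a secreted netrin, had 10.46 and 18 in intron 2 with FGF-2 and 73.7 and 58.5 with serum alone (-2.18). Ntn4 RNA was 0.700 ± 0.527 CPM with FGF-2 and 4.60 ± 1.13 CPM with serum alone (log2 fold change -2.55 ± 0.43). The noncoding gene 4930511M06Rik had 12.4 and 6 with FGF-2 and 53.4 and 32.6 with serum alone (-2.14), and its RNA fell by 1.98 on the log2 scale.

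Of these 10 decreases, 2 depended on the setting. The member in intron 4 of Ube2e2, a ubiquitin-conjugating enzyme, had 32.3 and 9 with FGF-2 and 86.6 and 90.3 with serum alone (-2.29) and was not called in the authors' deposited table (false discovery rate 0.0738). The member in intron 3 of Iqgap2, a scaffold that binds Rac and Cdc42, had 2.85 and 17 with FGF-2 and 55.3 and 22.6 with serum alone (-2.13). Its value was -1.02 without FGF-2 library 1 and -1.50 without serum library 1, neither of them called, and its adjusted p ran from 1.1e-05 to 0.381, the authors' value, over the settings.

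**Figure D3:**
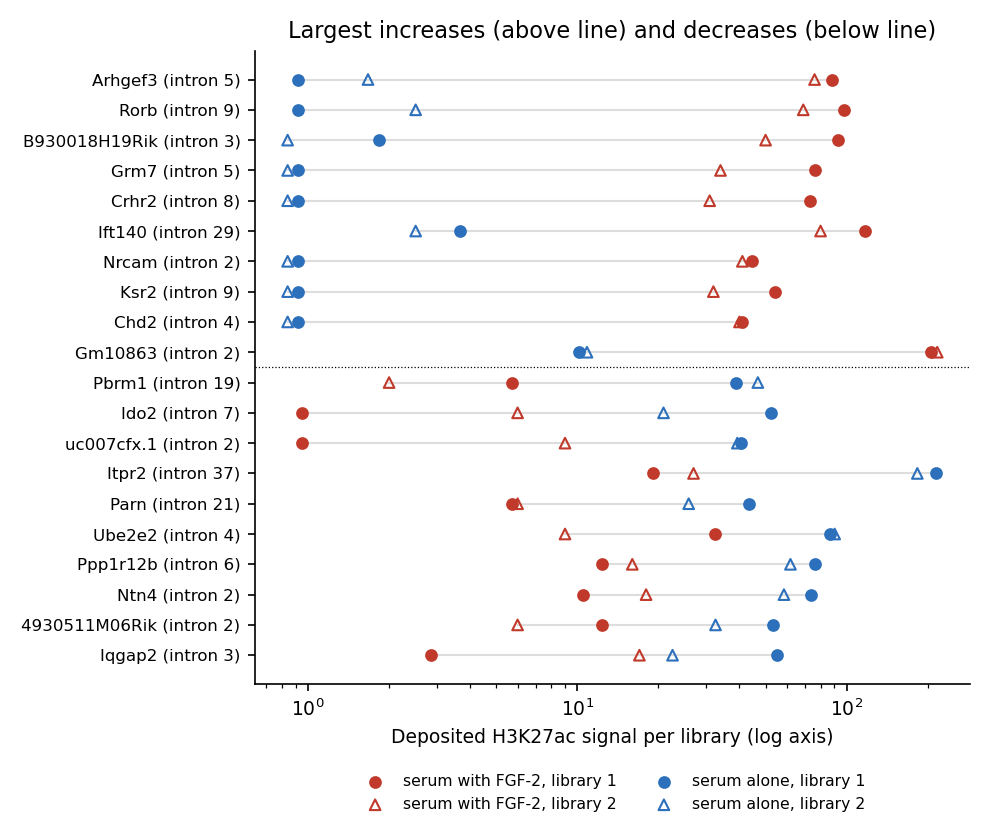
Deposited H3K27ac signal per library (log axis) of the 10 largest increases and 10 largest decreases, with FGF-2 libraries in red and serum libraries in blue. The rule for their choice required that the 2 FGF-2 values lie on the same side of both serum values. The rows run from 88.4 and 76 against 0.92 and 1.67 in Arhgef3 to 2.85 and 17 against 55.3 and 22.6 in Iqgap2.

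Members of very high signal were also in Itpr2. In intron 48, adjacent members had 1312 and 1103 (chr6:146184366-146185662) and 1017 and 929 (chr6:146185837-146186623) with FGF-2, against 428.2 and 605.9 and against 490.8 and 594.2 with serum alone. Their log2 differences were 1.24 ± 0.23 and 0.85 ± 0.23, so members of 1 gene rose in intron 48 and fell in intron 37. These were 1.11 and 0.78 without FGF-2 library 1, and without FGF-2 library 2 the second was 0.91, with the calls lost; adjusted p ran up to 0.16 and 0.417 over the settings. Over its 13 members, 3 higher and 2 lower, Itpr2 had a median signal of 97.1, against 21.9 over all members.

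Host genes with several changed members mostly changed in 1 direction. Increases made up 79.7% of all member calls (77.2% over all regions) and close members moved together, so the host counts below were not tested as a property of host genes. A single member was found in 1239 of the 2830 host genes, and 115 held 10 or more. Of 360 host genes with at least 2 called members, 270 had increases only, 38 had decreases only and 52 had both. Of 57 with at least 5 called members, 44 had increases only, 1 had decreases only and 12 had both. The most called members lay in Sept9, a septin (a filament-forming GTPase of the cytoskeleton): 14 of 18 rose and 0 fell. They were in introns 2, 3 and 10, and the 4 members nearest to the start, from 28492 to 39648 bases, were not called. The member in intron 10 (chr11:117357694-117358279) had 39.9 and 35 with FGF-2 and 0.92 and 2.51 with serum alone (log2 difference 3.89). Signals summed over the 18 members were 1264 and 1099 with FGF-2 and 648.3 and 531.5 with serum alone. Sept9 RNA was 675.8 ± 46.0 CPM with FGF-2 and 175.8 ± 28.3 CPM with serum alone (SD, n = 3 each; log2 fold change 1.94 ± 0.14, edgeR adjusted p = 1.35e-05). The 14 increases became 5 without either FGF-2 library, 17 without serum library 1 and 11 without serum library 2; edgeR called 13 and the authors' deposited table called 11.

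Ltbp1, which binds latent TGF-beta in the matrix, had 12 of 26 members higher and 0 lower. The edgeR count was 7 and that of the authors' deposited table was 6, and 0, 5 and 8 were called without FGF-2 library 1, FGF-2 library 2 and serum library 1. Ltbp1 RNA, at 53.2 ± 14.1 CPM with FGF-2 and 36.8 ± 2.34 CPM with serum alone (log2 fold change 0.55 ± 0.18), passed with all 6 RNA libraries and lost the call in 5 of the 6 fits that left 1 out: without FGF-2 RNA library 1 (0.52) or 2 (0.37), or serum RNA library 1 (0.52), 2 (0.52) or 3 (0.60). With library totals as the only RNA scaling it was 0.21 and did not pass (edgeR adjusted p = 0.354). In Chst11, a sulfotransferase that modifies chondroitin, 10 of 19 members rose, all 19 in intron 2. The member of smallest adjusted p (3.5e-07) had 89.4 and 69 with FGF-2 and 22.1 and 15.0 with serum alone (2.05 ± 0.35). The largest log2 difference, 3.04 ± 0.66, was in a member 159 kb from the nearest start, at 36.1 and 20 with FGF-2 and 0.92 and 5.01 with serum alone. Chst11 RNA was 4358 ± 74.4 CPM with FGF-2 and 1155 ± 553 CPM with serum alone (log2 fold change 1.92 ± 0.30). Without FGF-2 library 1, FGF-2 library 2 and each serum library, 1, 3 and 9 Chst11 members were called.

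Other hosts with many increases were Frmd4a (9 of 11 members, RNA log2 fold change 3.22 ± 0.41), Mast4 (9 of 15, 1.35 ± 0.15), Tns1, a focal adhesion protein (9 of 15, 0.60 ± 0.22, edgeR adjusted p = 0.0548), Glis1, a zinc-finger transcription factor (8 of 10, 2.99 ± 0.40), and Rgs6, a regulator of G-protein signalling (9 of 11, RNA not tested). Rnf216, a ubiquitin ligase, had 8 higher and 2 lower of 14, with an RNA log2 fold change of 0.12 that did not pass; its decreases numbered 0 without FGF-2 library 1 and 1 without each other library and in the authors' deposited table. Snd1 had 6 of 10 members higher and Rptor, a subunit of the kinase complex mTORC1, 6 of 14, with RNA log2 fold changes of -0.0039 and -0.14 that did not pass. For Slc39a11, a zinc transporter, 7 of 14 members rose while its RNA fell by 0.37 on the log2 scale; edgeR called 2 of those members, as did the authors' deposited table, and 1 was called without either FGF-2 library. Leaving out FGF-2 library 1 reduced the counts to 3 in Frmd4a, 2 in Mast4, 1 in Tns1, 5 in Glis1, 2 in Rgs6, 3 in Rnf216, 2 in Snd1 and 1 in Rptor. Leaving out FGF-2 library 2 gave 6, 5, 2, 6, 6, 4, 4 and 3 in the same order.

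Of the genes with the most members, Babam2 and Rad51b moved the other way. Babam2, a subunit of the BRCA1-A complex, held 56 members over 377 kb, of which 12 fell and 1 rose. That increase was not called by edgeR, in the authors' deposited table or in any fit without 1 library. It was not looked up in the other settings. Of the 56 log2 differences, 46 were below 0. Summed signals were 1951 and 1742 with FGF-2 and 2635 and 2561 with serum alone. Its RNA, counted under its older symbol Bre, was 35.5 ± 1.03 CPM with FGF-2 and 44.2 ± 4.94 CPM with serum alone (log2 fold change -0.32 ± 0.11); that call was lost in each fit without 1 RNA library except the one without serum RNA library 3, with log2 fold changes from -0.33 to -0.25. Rad51b, a gene of DNA repair, held 42 members, of which 8 fell and 0 rose, and 34 log2 differences were below 0. Summed signals were 1402 and 1194 with FGF-2 and 1910 and 1596 with serum alone, and its RNA was at 1.21 ± 0.47 CPM with FGF-2 and 2.25 ± 0.064 CPM with serum alone (log2 fold change -0.85, edgeR adjusted p = 0.0698; -1.23 and 0.0397 without FGF-2 RNA library 1). The authors' deposited table called 3 lower in Babam2 and 1 in Rad51b, and edgeR called 14 and 11. Without FGF-2 library 1, FGF-2 library 2, serum library 1 and serum library 2 the counts were 6, 1, 9 and 9 in Babam2 and 0, 1, 2 and 8 in Rad51b. Dlg2, a synaptic scaffold, had 3 higher and 1 lower of 50 members. Pakap and the noncoding gene Pvt1 had 39 members each, with 5 higher and 2 lower in Pakap and 6 higher and 1 lower in Pvt1. Without FGF-2 library 1 the increases in Dlg2, Pakap and Pvt1 numbered 0, 0 and 1, and without FGF-2 library 2 they numbered 1, 2 and 5. Without FGF-2 library 1, FGF-2 library 2, serum library 1 and serum library 2 the decreases numbered 0, 0, 0 and 3 in Dlg2, 1, 1, 0 and 3 in Pakap and 0, 1, 1 and 1 in Pvt1.

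**Figure D4:**
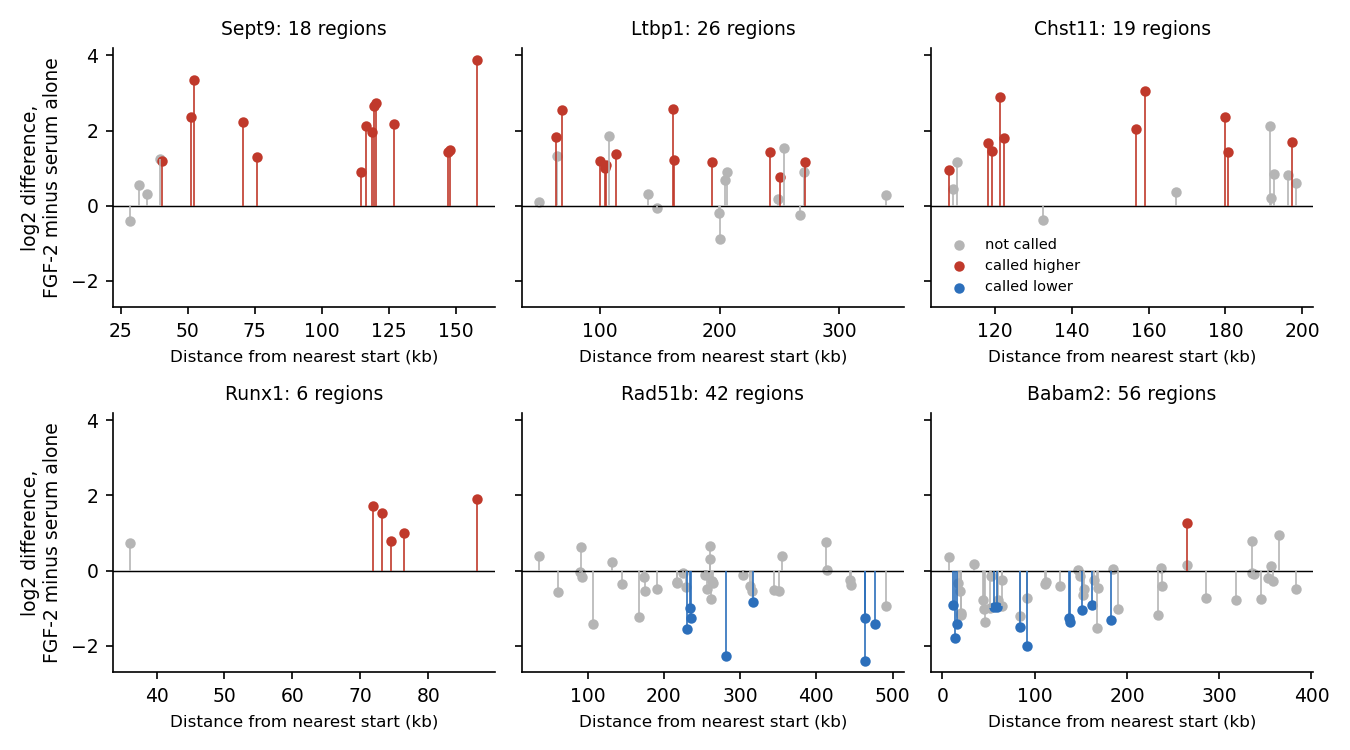
Log2 difference of each later-intron region, FGF-2 minus serum alone, against its distance from the nearest transcript start in kb, for 6 host genes; red, blue and grey mark regions called higher, lower and not called. In Sept9, Ltbp1, Chst11 and Runx1 the calls are increases; in Rad51b 8 of 42 are decreases and in Babam2 12 of 56, with 1 increase.

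Gene lists were read by role, each beside the 17.7% of members called higher and 4.50% called lower. Factors at the end of the ERK pathway held few members. In the ERK feedback and ETS target list, 9 members lay in 3 genes, and 1 rose (median log2 difference 0.48). It was in intron 4 of Etv5, an ETS factor induced by FGF signalling, with 23.8 and 19 with FGF-2 and 4.60 and 2.51 with serum alone (2.33); it was not called without FGF-2 library 1 (2.17) or FGF-2 library 2 (2.48), with adjusted p from 0.00125 to 0.218 over the settings. The AP-1 list held 1 member, in intron 2 of Fosl1, an AP-1 subunit. It rose, with 53.3 and 60 with FGF-2 and 25.8 and 23.4 with serum alone (1.17), and lost the call without FGF-2 library 1 (1.25) or FGF-2 library 2 (1.09), with adjusted p from 0.0023 to 0.17. This Fosl1 member was also not called by DESeq2 or in the authors' deposited table (false discovery rate 0.0531). Fosl1 RNA was 150.6 ± 59.7 CPM with FGF-2 and 48.1 ± 27.3 CPM with serum alone, with a log2 fold change of 1.66 (edgeR adjusted p = 0.0293). That call was lost without FGF-2 RNA library 1 (1.81) or 3 (1.31) and without serum RNA library 1 (1.41) or 2 (1.44), with adjusted p up to 0.0981.

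The ETS, RUNX and TEAD list had 23 members in 5 genes, of which 7 rose and 2 fell (median 0.44). Runx1, a transcription factor, accounted for 5 of the increases, with 6 members of which each had a positive log2 difference, from 0.73 to 1.90. The member in its last intron (chr16:92608442-92610118) had 112.2 and 107 with FGF-2 and 25.8 and 31.8 with serum alone (1.90 ± 0.31, adjusted p = 1.07e-07). The other 4 called members followed each other in intron 4, and the one nearest to the start had 78.0 and 55 with FGF-2 and 19.3 and 19.2 with serum alone (1.71; 1.47 and not called without FGF-2 library 1). Runx1 RNA was 107.8 ± 15.5 CPM with FGF-2 and 30.8 ± 12.1 CPM with serum alone (log2 fold change 1.83 ± 0.27). Leaving out FGF-2 library 1 left 1 Runx1 call and leaving out FGF-2 library 2 left 3. Tead1, a factor of the Hippo pathway, had 2 of 8 members higher, and 0 without FGF-2 library 1.

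Runx2, its relative, had 7 members with log2 differences from -1.33 to 1.64, of which 5 were below 0, and 2 in intron 3 were called lower. The member at 1.64, in intron 4, had 17.1 and 14 with FGF-2 and 3.68 and 5.01 with serum alone and was not called (adjusted p = 0.0764). One of the 2 called (chr17:44677137-44678854) had 89.4 and 61 with FGF-2 and 160.2 and 127.9 with serum alone (-0.95 ± 0.28), and the other 13.3 and 20 with FGF-2 and 47.9 and 37.6 with serum alone (-1.33 ± 0.40). Runx2 RNA rose, at 179.5 ± 14.8 CPM with FGF-2 and 53.5 ± 12.7 CPM with serum alone (log2 fold change 1.75 ± 0.16). Neither Runx2 member was called without FGF-2 library 1 (-1.22 and -1.05). The first was also lost without FGF-2 library 2 (-0.67) and the second without serum library 1 (-1.16). DESeq2 and the authors' deposited table (false discovery rate 0.0735) did not call the second. Over the list, 1, 4, 7 and 8 members were called higher without FGF-2 library 1, FGF-2 library 2, serum library 1 and serum library 2.

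Among secreted ligands, 11 members lay in 5 genes, with 2 higher and 1 lower (median 0.0035). Inhba, the activin A subunit, had its only member in intron 3 (chr13:16015293-16016172), at 38.0 and 25 with FGF-2 and 1 read in each serum library, at least 11.96-fold higher. Its log2 difference was 3.79 without FGF-2 library 1 and missed the threshold (adjusted p = 0.0599, the highest over the settings; 1.19e-06 with all libraries). Inhba RNA was 2962, 2422 and 6517 CPM with FGF-2 and 7.17, 10.96 and 179.3 CPM with serum alone (log2 fold change 5.94 ± 1.58), and that call was lost without FGF-2 RNA library 1 (6.11) or 3 (5.39) or serum RNA library 2 (5.41). Fgf1 had 41.8 and 17 in its last intron with FGF-2 and 4.60 and 5.01 with serum alone (2.26). That value was 1.63 and not called without FGF-2 library 1. The other Fgf1 member, at -0.17, was not called. Fgf1 RNA was at 25.98 ± 11.1 CPM with FGF-2 and 2.52 ± 1.29 CPM with serum alone. Jag1, a Notch ligand, had a member at 0.95 and 7 with FGF-2 and 19.3 and 14.2 with serum alone (-2.15) while its RNA rose, at 1671 ± 285 CPM with FGF-2 and 75.6 ± 54.8 CPM with serum alone. That Jag1 call held in some settings. It was lost without FGF-2 library 1 (-1.14), serum library 1 (-1.95) or serum library 2 (-2.36). Neither DESeq2 nor the authors' deposited table (false discovery rate 0.161) made the call.

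Receptor tyrosine kinases held 14 members with 0 higher and 1 lower (median -0.37). All 8 members of Igf1r, the receptor for insulin-like growth factor 1, had log2 differences below 0, from -1.21 to -0.12, and 1 was called. Its signals were 10.46 and 15 with FGF-2 and 37.8 and 24.2 with serum alone, and Igf1r RNA was 78.3 ± 14.3 CPM with FGF-2 and 139.7 ± 15.2 CPM with serum alone (log2 fold change -0.83 ± 0.14). The region call was lost without FGF-2 library 1 (-0.97), FGF-2 library 2 (-1.45) or serum library 1 (-0.90). Nor was it made by DESeq2 or in the authors' deposited table (false discovery rate 0.185). The TGF-beta, activin and BMP list had 34 members, with 2 higher and 1 lower (median 0.085). The increases were in Acvr1, an activin and BMP receptor (26.6 and 30 with FGF-2, 11.1 and 2.51 with serum alone, 2.17), and Bmpr1a, a BMP receptor (21.9 and 27 with FGF-2, 7.37 and 5.01 with serum alone, 1.84). Smad6, an inhibitor of BMP signalling, had the decrease, at 5.71 and 19 with FGF-2 and 44.2 and 30.1 with serum alone (-1.69). It was the only call among 8 Smad6 members, whose median log2 difference was 0.00086 (range -1.69 to 1.08). Smad6 RNA was 3.30 ± 1.97 CPM with FGF-2 and 53.9 ± 18.3 CPM with serum alone (log2 fold change -3.94 ± 0.42). Each of these calls was lost without FGF-2 library 1, at 2.25, 1.98 and -0.91. Acvr1 (2.09) and Bmpr1a (1.69) also lost the call without FGF-2 library 2. So did Acvr1 without serum library 2 (1.28) and Smad6 without serum library 1 (-1.42). None of these calls was made by DESeq2. The authors' deposited table called neither Bmpr1a nor Smad6 (false discovery rates 0.057 and 0.0793). The list had 4 higher without serum library 1 and 3 lower without serum library 2.

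In the cAMP, cGMP and protein kinase A list, 6 of 57 members rose and 2 fell (median 0.38). Sik3, a kinase that protein kinase A phosphorylates and that holds back CREB coactivators, had 4 of its 7 members higher, all in intron 4. The wider of the strongest pair (chr9:46174933-46176730) had 103.7 and 87 with FGF-2 and 28.6 and 28.4 with serum alone (1.70 ± 0.32), and its neighbour 49.5 and 50 with FGF-2 and 13.8 and 5.85 with serum alone (2.33 ± 0.43). Sik3 RNA was 161.4 ± 12.4 CPM with FGF-2 and 64.3 ± 5.05 CPM with serum alone (log2 fold change 1.33 ± 0.11). Pde5a, which degrades cGMP, had 34.2 and 39 in intron 3 with FGF-2 and 108.7 and 76.9 with serum alone (-1.30; -1.21 and not called without FGF-2 library 1). The other Pde5a member, at 0.43, was not called. Pde5a RNA was 4.63 ± 0.24 CPM with FGF-2 and 40.5 ± 3.29 CPM with serum alone (log2 fold change -3.14 ± 0.14). Prkar2b, a regulatory subunit of protein kinase A, had 32.3 and 21 with FGF-2 and 62.6 and 57.7 with serum alone (-1.17). That member was at -0.87 and not called without FGF-2 library 2. The call was also absent in DESeq2 and the authors' deposited table (false discovery rate 0.0618). Prkar2b RNA fell by 1.41 on the log2 scale. The list had 3 and 11 members higher without FGF-2 library 1 and serum library 1, and Sik3 had 2 without either FGF-2 library.

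The list of steroidogenesis and adrenocortical identity had 11 members in 4 genes, with 2 higher and 1 lower (median -0.048). Both increases were in intron 2 of Por, which passes electrons to cytochromes P450. The wider Por member (chr5:135720506-135722246) had 117.0 and 124 with FGF-2 and 43.3 and 40.1 with serum alone (1.51 ± 0.30), and was called in every alternative in which it was tested. The narrower one had 18.1 and 14 with FGF-2 and 0.92 and 8.36 with serum alone (2.00). Its call was lost in edgeR, in the authors' deposited table, without FGF-2 library 1 (1.82), FGF-2 library 2 (2.17) and serum library 1 (0.85), with adjusted p up to 0.457. Por RNA was 3679 ± 249 CPM with FGF-2 and 1419 ± 434 CPM with serum alone (log2 fold change 1.37 ± 0.21). Soat1, which esterifies cholesterol for storage, had a decrease in intron 2, at 9.51 and 4 with FGF-2 and 26.7 and 30.1 with serum alone (-2.02; -1.48 and not called without FGF-2 library 2). This was the only call among 5 Soat1 members, whose median log2 difference was 0.22. Soat1 RNA rose, at 2617 ± 593 CPM with FGF-2 and 605.2 ± 203 CPM with serum alone (log2 fold change 2.11 ± 0.26).

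The list of actin cytoskeleton and small GTPase regulators had the most members, 79 in 19 genes, and 18 of them (22.8%) rose and 4 fell (median 0.30). The increases were spread over 9 genes, led by Arhgef3 with 5 of 10 (2 and 3 without FGF-2 library 1 and FGF-2 library 2) and by Dock1, an exchange factor for Rac, with 4 of 9 (0 and 1 without FGF-2 library 1 and FGF-2 library 2, 2 without serum library 1, and 1 in the authors' deposited table). In intron 4 of Arhgef3 a further member had 93.2 and 70 with FGF-2 and 20.3 and 15.0 with serum alone (2.15 ± 0.35). The decreases included intron 14 of Arhgap26, a GTPase activating protein, at 6.66 and 1 with FGF-2 and 23.0 and 14.2 with serum alone (-2.29). Mylk, the myosin light chain kinase, had each of its 6 members below 0 and 2 called, the clearest at 5.71 and 1 with FGF-2 and 22.1 and 12.5 with serum alone (-2.27), and its RNA fell by 0.92 on the log2 scale. Both decreases were lost without FGF-2 library 2 (-1.32 and -1.40) or serum library 1 (-1.96 and -1.89). The list's increases numbered 4 without FGF-2 library 1, 8 without FGF-2 library 2, 13 in edgeR and 11 in the authors' deposited table, and its decreases numbered 0 without FGF-2 library 2, without serum library 1 and in the authors' deposited table.

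Among 62 members of the adhesion and extracellular matrix list, 8 rose and 4 fell (median 0.013). Itgb3, the integrin beta 3 chain, had 3 members and all rose. The one of smallest p had 24.7 and 14 with FGF-2 and 0.92 and 5.85 with serum alone (2.44). It was not called without FGF-2 library 1 (2.05), FGF-2 library 2 (2.83) or serum library 1 (1.52). Also without the call were DESeq2 and the authors' deposited table (false discovery rate 0.0625). Itgb3 RNA was 66.7 ± 19.5 CPM with FGF-2 and 4.93 ± 5.11 CPM with serum alone (log2 fold change 3.94 ± 0.65). Fbn1, fibrillin of elastic microfibrils, was mixed, with 1 of 8 members higher and 3 lower. In intron 31 it had 39.0 and 27 with FGF-2 and 11.97 and 5.01 with serum alone (1.92), in intron 4 it had 17.1 and 26 with FGF-2 and 71.8 and 41.0 with serum alone (-1.32), and in intron 6 it had 75.1 and 59 with FGF-2 and 143.7 and 116.2 with serum alone (-0.95). These were 1.67, -1.03 and -1.12 without FGF-2 library 1, with no call; the intron 4 call was also lost without serum library 1 (-0.92) and the intron 6 call without FGF-2 library 2 (-0.77), and Fbn1 RNA fell by 1.94 on the log2 scale. The list's increases numbered 0 without FGF-2 library 1 and 2 without FGF-2 library 2, and its decreases 0, 2 and 1 without FGF-2 library 1, FGF-2 library 2 and serum library 1.

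The Wnt and Notch list had 2 of 24 members higher and 0 lower (median -0.16). Both were in Tcf7l2, a factor of the Wnt pathway. Its intron 3 had 260.6 and 231 with FGF-2 and 140.9 and 104.5 with serum alone (1.01), and its intron 4 had 53.3 and 41 with FGF-2 and 23.9 and 16.7 with serum alone (1.18). Neither was called without FGF-2 library 1 (0.92 and 1.00) or FGF-2 library 2 (1.10 and 1.37). The second was also lost without serum library 2 (0.94), in DESeq2 and in the authors' deposited table (false discovery rate 0.0909). The cell cycle list had 1 of 12 members higher and 0 lower (median 0.31), in E2f2, at 67.5 and 63 with FGF-2 and 35.9 and 34.3 with serum alone (0.88), a value that passed in limma (adjusted p = 0.0472) and in neither edgeR nor the authors' deposited table. Without FGF-2 library 1, FGF-2 library 2 and serum library 2 the E2f2 member stood at 0.83, 0.93 and 0.84 with no call.

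The RNA of host genes of increases rose more often than it fell under TMM scaling, and fell more often than it rose under library totals alone; the RNA of host genes of decreases fell more often under both. Of 10374 tested genes, 22.1% were called higher and 24.2% lower in RNA with FGF-2 (edgeR, Benjamini-Hochberg adjusted p under 0.05). Among 548 host genes with a member called higher and none lower, RNA rose in 218 (39.8%) and fell in 98 (17.9%), with a median log2 fold change of 0.22. Among 154 host genes with a member called lower and none higher, RNA rose in 26 (16.9%) and fell in 69 (44.8%), with a median of -0.38. In 44 host genes with members called both ways, RNA rose in 9 and fell in 14. Of the 1313 host genes with members but no call, RNA rose in 260 (19.8%) and fell in 420 (32.0%), with a median of -0.16. Spearman's rho between the mean log2 difference of a gene's members and its RNA log2 fold change was 0.30 over 2059 host genes, which share the same libraries.

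Scaled by library totals alone, the median of all genes was -0.36 in place of -0.023, and RNA was called higher in 141 and lower in 179 of the 548 hosts of increases, in 12 and 98 of the 154 hosts of decreases, and in 133 and 717 of the 1313 hosts with no call. The order of the 3 groups of hosts by share called higher, 25.7%, 7.79% and 10.1%, put the hosts of increases first under this scaling too. A further 698 host genes with an RNA row were not tested, and 256 of them were listed at 0 in every library, Parn and Tcf7l2 among them; a value of 0 there is not read as absence of RNA.

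**Figure D5:**
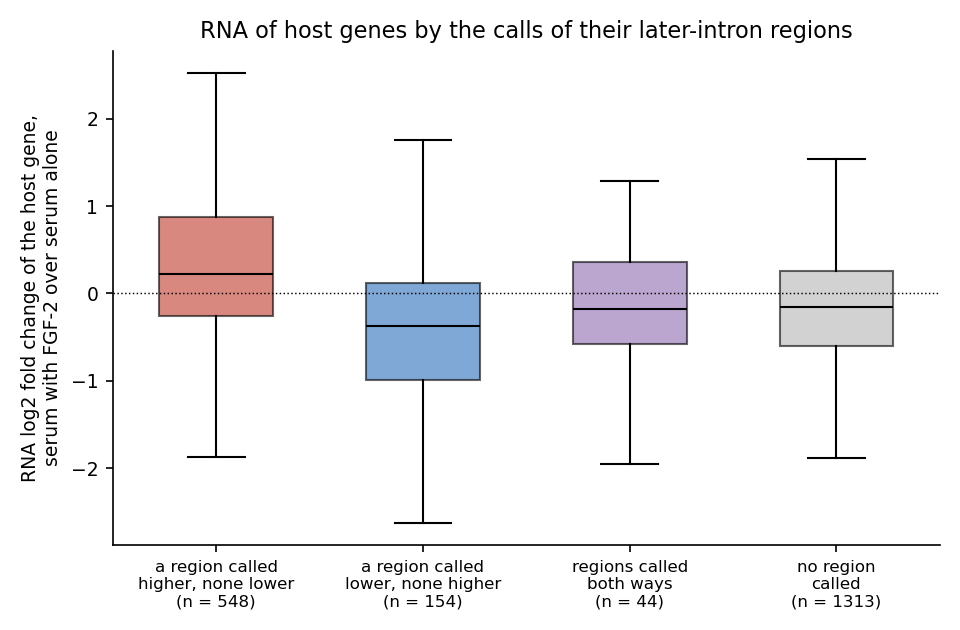
RNA log2 fold change (serum with FGF-2 over serum alone, edgeR) of host genes by the calls of their later-intron regions; boxes show the median and quartiles, whiskers reach to 1.5 times the interquartile range and outliers are not drawn. Medians under TMM scaling are 0.22 for hosts of increases (-0.12 under library totals alone), -0.38 for hosts of decreases, -0.18 for hosts of both and -0.16 for hosts with no call.

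The promoters of the host genes were seldom called, as were all regions within 1 kb of a start (2.67% higher and 1.39% lower). A region within 1 kb of the host's start was measured for 531 hosts of increases, and 40 of these promoters were called higher, 1 was called lower and 490 were not called. For 150 hosts of decreases, 2 promoters were called higher, 3 lower and 145 not. Over 2009 host genes the interquartile range of the mean later-intron differences was 0.99 on the log2 scale and that of the promoters 0.37, and Spearman's rho between them was 0.22. Median signals were 21.9 in later introns and 122.4 at start sites, and the part of signal level in these ranges was not tested. The promoter shares were 7.53% higher for hosts of increases and 2.02% for hosts with no called member, a difference that was not tested.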

How the data were processed

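Members and gene lists were chosen with earlier results of these data known. Per the submitters' processing notes, the tools were DESeq2, HTSeq 0.10.0, ChIPseeker, DiffBind, MACS2 2.2.6, bedtools 2.15.0, SAMtools 1.1 and STAR 2.5.2a, on build mm10. The deposited region table gives the authors' normalised signal per library, their log2 fold, p-value and false discovery rate; no statement on input subtraction is given in the sources used here. The signals are whole numbers, taken as reads, times a factor per library, which was estimated from the values (tolerance 0.02 reads). Peaks, with the authors' fold ratio and −log10 q per peak, were called per library with MACS2 at q 0.01, per the file headers, and overlaps of at least 1 base were counted. RNA values are raw counts per gene deposited by the authors; 37.0% to 43.2% of each library's reads lay outside genes and were left out, and in-gene totals were 5625004 to 12696426. No source used here gives the strand setting of the counting, so genes that overlap on opposite strands are uncertain.

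Signals were tested with limma 3.58.1 (trend, robust) on log2(signal + 1) over all 40772 regions, with Benjamini-Hochberg adjustment at 0.05; for 94.3% of regions the prior degrees of freedom were infinite, so the spread was that of regions of like signal. RNA was tested with edgeR 4.0.16 (quasi-likelihood, robust, TMM, filterByExpr) in R 4.3.3, and DESeq2 1.42.0 was an alternative for both assays. CPM are TMM-scaled. Both tests were tested on simulated data first. Hosts came from the annotation's Entrez number: 7724 members had one and 7699 matched an RNA row. No source says that libraries came from separate cultures, so p-values measure the spread between libraries, which may be technical. A floor of 3 reads per library was used where both libraries of a group stood at 1 read; it covers counting error only.

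The named regions were the 10 largest increases and 10 largest decreases (adjusted p under 0.05, mean signal of at least 20, no overlap between groups), the 3 of highest signal (1 of them is not reported here) and up to 2 each way per gene list; host genes were named by most members and most calls, and Frmd4a, Mast4, Tns1, Glis1, Rgs6, Snd1, Rptor, Slc39a11, Tead1 and Dock1 after their values were seen. Sequences are RefSeq start windows (GRCm38.p6); sequences of whole regions and the motif shares planned for them were not analysed here. The crossed pairing, the counts per gene and list under other settings, and the signal shares, fold limits and marker RNA without 1 library were alternatives chosen after seeing the data.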

Additional observations from a re-analysis of the deposited data

How the results depend on the processing

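Counts of members called higher and lower (1388 and 353) were 742 and 214 among members with a mean signal of at least 20, and 534 and 171 with DESeq2, where the median of all regions was -0.013; the authors' deposited false discovery rate gave 848 and 146. Fewer libraries or regions enter the first of these and the leave-one-out fits; otherwise the cause was not tested. Except for the authors' deposited rate, shares over all regions were not looked up for the settings of this paragraph. The lower calls numbered 162 at an adjusted p under 0.01. With a replicate block the counts were 1117 and 227. No source says that the numbers pair the libraries. The r of the difference between libraries 1 and 2 across groups was -0.167 over the members, which does not settle it. A crossed pairing called 1641 and 496. Leaving out 1 library gave 289 to 1421 higher and 142 to 375 lower, and medians of 0.14 to 0.34. After centring, the median was 0.054. The share of signal in members, 0.691 percentage points higher with FGF-2, ran from 0.254 to 1.13 without 1 library. With peaks of −log10 q of at least 5, members with a peak were 69.1% and 65.7% with FGF-2 and 59.6% and 61.3% with serum alone; with an overlap of at least 50% of the region, 67.3% and 54.6% with FGF-2 and 59.4% and 52.1% with serum alone.

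With library totals alone, 291 host genes rose and 1016 fell in RNA (513 and 601 with TMM), with 141 and 179 in hosts of increases and 12 higher in hosts of decreases; Bmpr1a and Pbrm1 RNA turned to -0.31 each from 0.030 and 0.028. With the authors' deposited calls for regions, 163 and 58 of 361 hosts of increases rose and fell (16.1% fell, against 17.9% of 548 with limma's calls), and 11 and 31 of 78 hosts of decreases rose and fell (14.1% and 39.7%, against 16.9% and 44.8% of 154). Leaving out 1 RNA library gave 17 (without serum RNA library 1) to 24 hosts of decreases that rose, against 26 with all. The r of deviations between RNA libraries of the same number was -0.125, 0.054 and 0.387 for numbers 1, 2 and 3. Pairing by number was thus not settled for the RNA. The block left every RNA count within 1.5 times and kept the Cyp11a1 call (-0.81, edgeR adjusted p = 0.00202). It lowered the SE of Star from 0.50 to 0.21 and that of Nr5a1 from 0.135 to 0.130. To the named RNA calls the block added Iqgap2 (-0.45). Among named regions it ended 3 calls, in Itpr2 (intron 48, 0.85), Igf1r (-1.21) and E2f2 (0.88). Of 53 named regions, 23 kept their call in every setting tested and 0 changed sign. With 2 libraries per group, changes at low signal limit what can be called.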
